A study of Mus musculus with 24 samples.

Results

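The expression of 10 genes of the contractile apparatus of smooth muscle and myofibroblasts was followed across cultured mouse chondrocytes, the cells that make cartilage matrix. They form a list of symbols of SRF-dependent contractile genes, and all 10 were among the 17094 genes of the table and among the 12178 that were tested. The set held the actins Acta2 and Actg2, the myosin subunits Myh11 and Myl9, the tropomyosins Tpm1 and Tpm2, the actin-binding proteins Tagln, Cnn1 and Cnn2, and Lmod1. RNA was sequenced from wild-type primary chondrocytes taken from the lower chamber of transwell plates, a device in which a porous membrane separates cell populations that share medium. They were kept in normal culture or in co-culture with primary dermal fibroblasts, and without or with the inflammatory cytokine IL-1β at 10 ng/ml, which was given 24 h after attachment. Cells were collected 36 h or 72 h after IL-1β was added, so that culture, treatment and time formed 8 groups of 3 libraries. Chondrocytes and fibroblasts came from collagenase-digested cartilage and skin, and the sources used here do not give the age and number of the mice or the medium of the co-cultures. Because no label says whether the 3 libraries of a group came from separate animals or cultures, each p-value is relative to a spread between libraries that may be technical.

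Smooth muscle cells and myofibroblasts contract by pulling myosin II along actin filaments that contain the α and γ smooth muscle actins. Tropomyosins lie along these filaments, calponins and transgelin bind to them, and leiomodin 1 starts new ones. Transcription of these genes depends largely on serum response factor (SRF), which binds the CArG box in their promoters with its coactivators, the myocardin-related factors MRTF-A and MRTF-B and, in smooth muscle, myocardin. The MRTFs are held back by unpolymerised actin and act when actin assembles into filaments. TGF-β is the best known inducer of this program in fibroblasts, and chondrocytes grown flat on plastic are known to take on a fibroblast-like shape with actin stress fibres.

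The promoters are shown first because the members are grouped by this shared regulator. RefSeq promoter entries (GRCm38.p6) were matched for 7 of the 10 members, and the 250 bases before each start site were searched for the CArG box, a motif of 10 bases, on both strands, alone and with 1 mismatch. Myl9 and Cnn2 each held a full match, and with 1 mismatch allowed there were matches in Acta2, Myl9, Tpm1, Cnn2 and Lmod1, which made 5 of 7. A full match occurred in 1.47% of the 32851 windows of the whole set and a full or 1-mismatch match in 18.6%. A match is a description of letters and not a measured binding site. In the sequences below, written 5′ to 3′ on the strand of the gene, the capitals mark the matches. The first is the stretch before the first annotated exon of Myl9 at chr2:156775214-156775419 (plus strand), with a full match at -161 to -152 and a 1-mismatch match at -99 to -90 from the start site.
Myl9: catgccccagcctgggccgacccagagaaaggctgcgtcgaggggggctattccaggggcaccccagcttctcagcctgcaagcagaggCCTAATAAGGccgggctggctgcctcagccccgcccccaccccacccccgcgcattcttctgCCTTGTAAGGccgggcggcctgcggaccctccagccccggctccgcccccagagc
The corresponding stretch of Cnn2 at chr10:79988350-79988583 (plus strand) has its full match at -56 to -47.
Cnn2: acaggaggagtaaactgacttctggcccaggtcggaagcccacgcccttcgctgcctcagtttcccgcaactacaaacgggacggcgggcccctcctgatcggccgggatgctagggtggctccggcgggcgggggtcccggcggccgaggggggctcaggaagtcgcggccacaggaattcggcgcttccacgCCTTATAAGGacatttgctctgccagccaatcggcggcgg
The other matches had 1 mismatch and are shown as windows of 30 bases, except a second one of Tpm1 at -80 to -71, inside an annotated exon. The Acta2 windows lie at chr19:34255438-34255467 and chr19:34255388-34255417 (minus strand), inside an exon of the GENCODE vM21 annotation, and their matches begin 84 and 34 bases before the RefSeq start. The Tpm1 window lies at chr9:67049415-67049444 (minus strand) before the first exon, and the Lmod1 windows lie at chr1:135324614-135324643 and chr1:135324639-135324668 (plus strand).
Acta2, first: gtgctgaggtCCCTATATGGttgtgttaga
Acta2, second: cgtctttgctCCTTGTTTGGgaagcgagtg
Tpm1: gctcgggtccCCATATATAGtcatatccac
Lmod1, first: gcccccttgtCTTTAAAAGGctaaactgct
Lmod1, second: ctgctctgtaCTAAATTTGGtcacgcagcg
Windows with at least 2 such matches made up 2.96% of the whole set, and Acta2, Myl9, Tpm1 and Lmod1 were among them. Tpm2 and Cnn1 had no match in this window, which says nothing about SRF at these genes.

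Levels are given in FPKM, fragments scaled to the length of the gene and the size of the library, as mean ± SD (n = 3). Depth is unknown, which leaves these values without a counting error. Changes are differences of log2(FPKM + 1) from a limma fit to all 24 libraries, and a gene passed the test at an adjusted p under 0.05 over the 12178 genes tested. Shares of all tested genes belong to this fit, and none is given for alternative fits or for libraries left out unless stated. Because 1 is added, these differences understate the change of Myh11 and Lmod1, whose levels were low, and folds are ratios of mean FPKM.

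The libraries carried the marks of chondrocytes together with strong fibroblast-type expression. In untreated normal culture at 36 h, the cartilage collagen Col2a1 stood at 302 FPKM, its regulator Sox9 at 30.3 and the proteoglycan Acan at 9.85, while the fibrillar collagen Col1a1 stood at 2489. The 13 skeletal muscle markers that passed the filter were present as well, with a summed list level of 278 to 314 FPKM in that group. Defining endothelial markers were near 0, and the summed level of that list was 4.27 to 6.99 FPKM over the 24 libraries. Myocd, the myocardin gene that marks smooth muscle, reached 0.31 FPKM at most. In bulk RNA, fewer cells of a type and less RNA per cell cannot be told apart. One library stood apart: in IL-1β-treated normal culture at 72 h, replicate 1 was below the other 2 libraries in each of the 10 members, by a median of -0.51 on the log2 scale, while the median over all tested genes was -0.0035 and 1.58% of them lay lower than the members' median. The members' coefficient of variation had a median of 21.6% in that group and of 2.48% to 7.14% in the other 7. Counts of genes that rest on that group are therefore given with and without replicate 1. The 8 groups share 1 estimate of spread, so this library also enters the SE of comparisons that do not use its group. Those comparisons were not refitted without it alone, and only fits of the compared groups alone leave it out. In IL-1β-treated co-culture at 72 h replicate 1 was also the lowest library in each of the 10 members. There Acta2 read 1308 against 1449 and 1430 FPKM, and the median coefficient was 7.14%.

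Acta2, Tpm1 and Tagln were among the most abundant mRNAs of the cultures. The mean of Acta2 over the 8 groups was 1100 FPKM, rank 57 in the table, followed among the members by Tpm1 with 698 FPKM (rank 106) and Tagln with 506 FPKM (rank 149). Cnn2, Myl9 and Tpm2 averaged 250.4, 226 and 190.1 FPKM, Actg2 102 and Cnn1 64.6, and Lmod1 and Myh11, the leiomodin and the smooth muscle myosin heavy chain, only 9.40 and 3.39. The 10 members together made up 0.427% ± 0.00698 of all FPKM in untreated normal culture at 36 h, 0.783% ± 0.0231 with IL-1β at 36 h and 0.757% ± 0.0495 without it at 72 h. Cnn1 spanned the widest range of group means, 5.14-fold, then Actg2 with 4.65-fold, and Cnn2 and Tpm1 the narrowest with 1.37-fold and 1.40-fold.

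**Figure D1:**
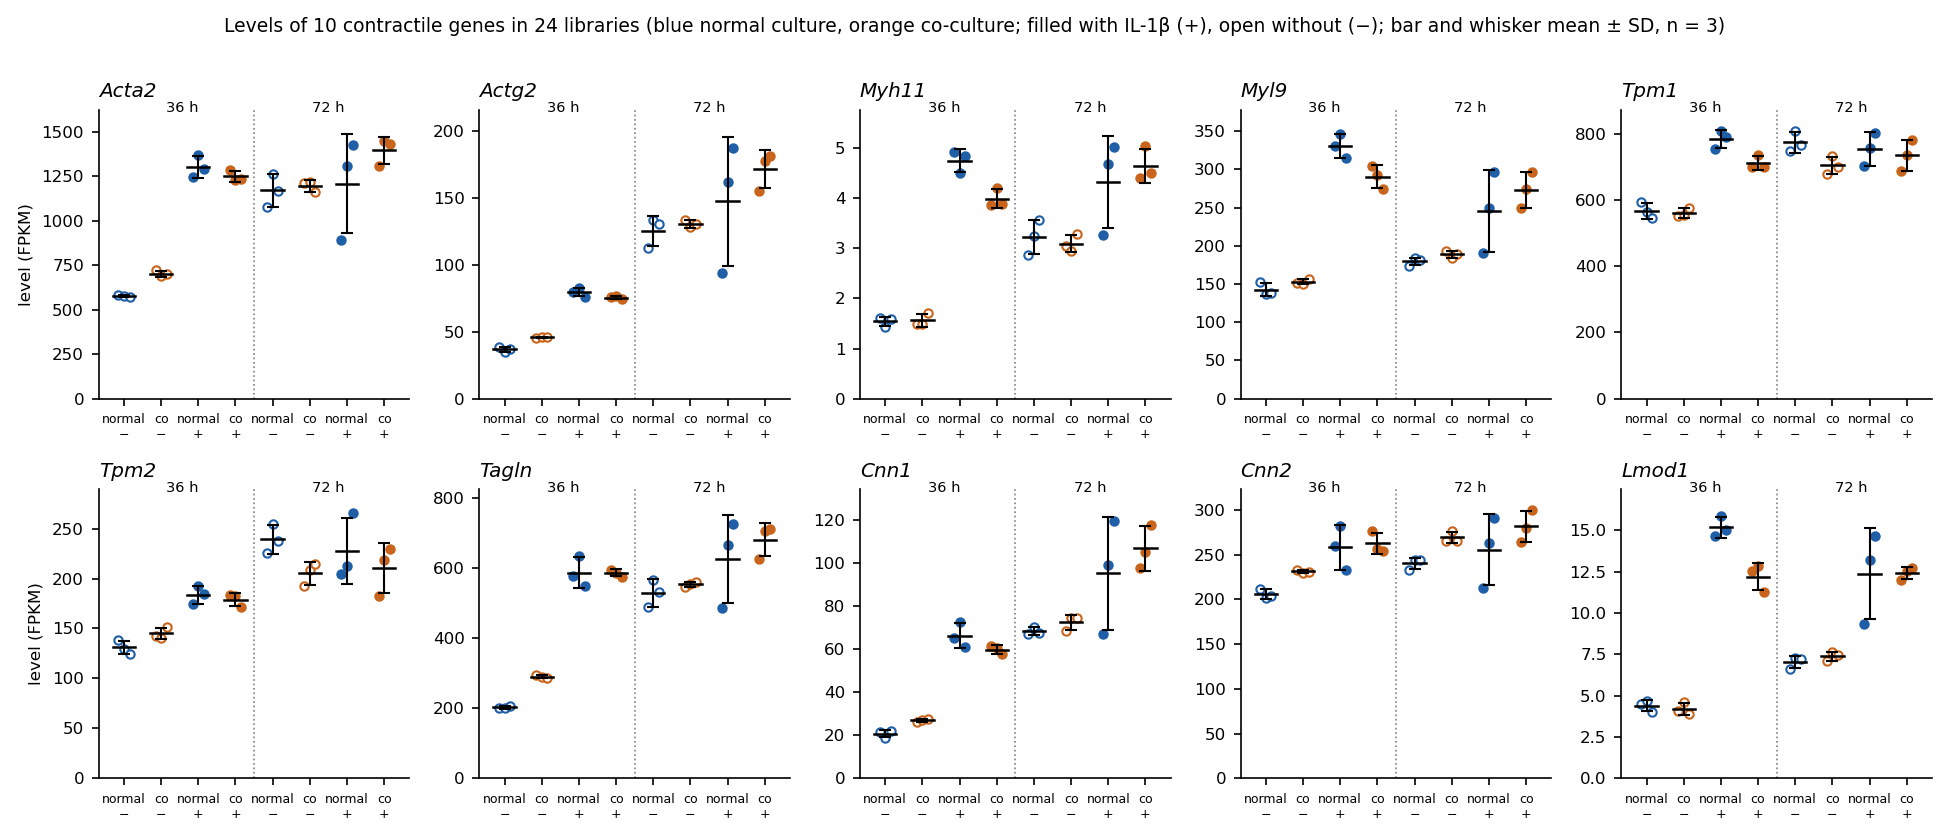
Level of each of the 10 genes in FPKM (vertical axis, from 0) in the 8 groups, 36 h at left and 72 h at right of the dotted line; each point is 1 library, the bar and whisker are the mean ± SD of 3. In every panel but that of Cnn2 the 6 untreated libraries at 36 h lie below all others, and the 3 points of IL-1β-treated normal culture at 72 h spread most widely, for Acta2 from 893 to 1425 FPKM.

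The order of the groups differed between members. In Acta2, Tagln, Myh11, Myl9 and Lmod1 the means of all 4 IL-1β-treated groups lay above those of all 4 untreated groups. For Lmod1 this held for every library, with a highest untreated value of 7.64 FPKM and a lowest treated value of 9.31 FPKM. In Actg2, Tpm2 and Cnn1 the order followed time, with all 4 means at 72 h above all 4 at 36 h, and for Actg2 every library at 72 h (93.9 FPKM or more) was above every library at 36 h (82.4 FPKM or less). Tpm1 and Cnn2 followed neither order. The share of all tested genes with either order was not computed, so these orders are a description and not a trait particular to the members. The lowest mean was that of untreated normal culture at 36 h in 8 members and of untreated co-culture at 36 h in Tpm1 and Lmod1, where these 2 groups overlapped. The highest mean was that of IL-1β-treated co-culture at 72 h in 5 members, of IL-1β-treated normal culture at 36 h in 4, and of untreated normal culture at 72 h in Tpm2. These places depend on the library that stood apart. Without replicate 1 of IL-1β-treated normal culture at 72 h, that group had the highest mean in Actg2, Cnn1, Tagln and Myh11. Near the top the groups were close: from the third place upward in Acta2, each group overlapped the next in its libraries.

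IL-1β raised most of these genes at 36 h in both cultures. In normal culture all 10 members rose, with a median difference of 1.18, where the median of all tested genes was -0.09, 25.9% of them were higher and 41.5% lower. Groups did not overlap for any member, where 28.2% of tested genes were higher without overlap.

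Among the filament proteins, Acta2, the actin that defines myofibroblasts, read 580.3, 575 and 569 FPKM in the untreated libraries and 1244, 1369 and 1292 with IL-1β. The groups lay far apart, and the means differed 2.26-fold (log2 difference 1.18, SE 0.10, adjusted p = 1.45e-09). Actg2, the γ actin of enteric smooth muscle, went from 38.9, 34.8 and 37.0 FPKM to 79.8, 82.4 and 76.3, a 2.15-fold rise. Myh11, the heavy chain of smooth muscle myosin, was barely expressed, at 1.61, 1.43 and 1.58 FPKM, and read 4.92, 4.49 and 4.83 with IL-1β. Its fold was 3.08 and its difference 1.18 (adjusted p = 1.43e-10). Myl9, the regulatory light chain whose phosphorylation switches contraction on, rose 2.32-fold from 143 ± 8.27 to 331 ± 15.4 FPKM. The tropomyosins moved least among the filament genes, Tpm1 by 0.46 and Tpm2 by 0.48 on the log2 scale.

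The actin-binding members included the largest changes. Tagln, which encodes transgelin, a cross-linker of actin filaments, read 199.7, 199.5 and 207 FPKM without IL-1β and 577, 634 and 548 with it. That 2.90-fold rise, a difference of 1.53 (SE 0.09, adjusted p = 2.65e-12), is given with a limit on counting: 47.6% of the 50-base words of Tagln transcripts also occur in transcripts of Pcsk7 or Gm48529, on either strand, and the labels name no strand-marking step. Pcsk7 itself stood at 7.39 to 10.4 FPKM over all 24 libraries. Cnn1, calponin 1, a smooth muscle protein that slows myosin on actin, went from 21.7, 18.9 and 21.8 to 65.3, 72.5 and 61.1 FPKM. Its difference of 1.63 (SE 0.12, 3.19-fold, adjusted p = 9.09e-11) exceeded that of each other member. Cnn2, the broadly expressed calponin, moved least of the 10, from 206 ± 5.53 to 258.0 ± 24.7 FPKM (0.32, adjusted p = 0.00118). Lmod1, an actin nucleator of smooth muscle, rose 3.45-fold from 4.52, 4.65 and 4.03 to 14.6, 15.9 and 15.02 FPKM.

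In co-culture at 36 h the same direction held with smaller values. In all, 9 members rose and the median difference was 0.87, against -0.06 for all tested genes, of which 23.4% were higher and 35.3% lower. Cnn2 missed the threshold (0.18, 95% interval 0.02 to 0.35, adjusted p = 0.0552), although its untreated (233, 229.5 and 231 FPKM) and treated libraries (276, 257 and 254) did not overlap. Acta2 read 722, 689 and 698 FPKM without IL-1β and 1283, 1229 and 1236 with it, a rise of 0.83. Tagln rose by 1.01 from 289 ± 3.75 to 585 ± 10.1 FPKM, and Lmod1 had the largest difference there, 1.35.

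**Figure D2:**
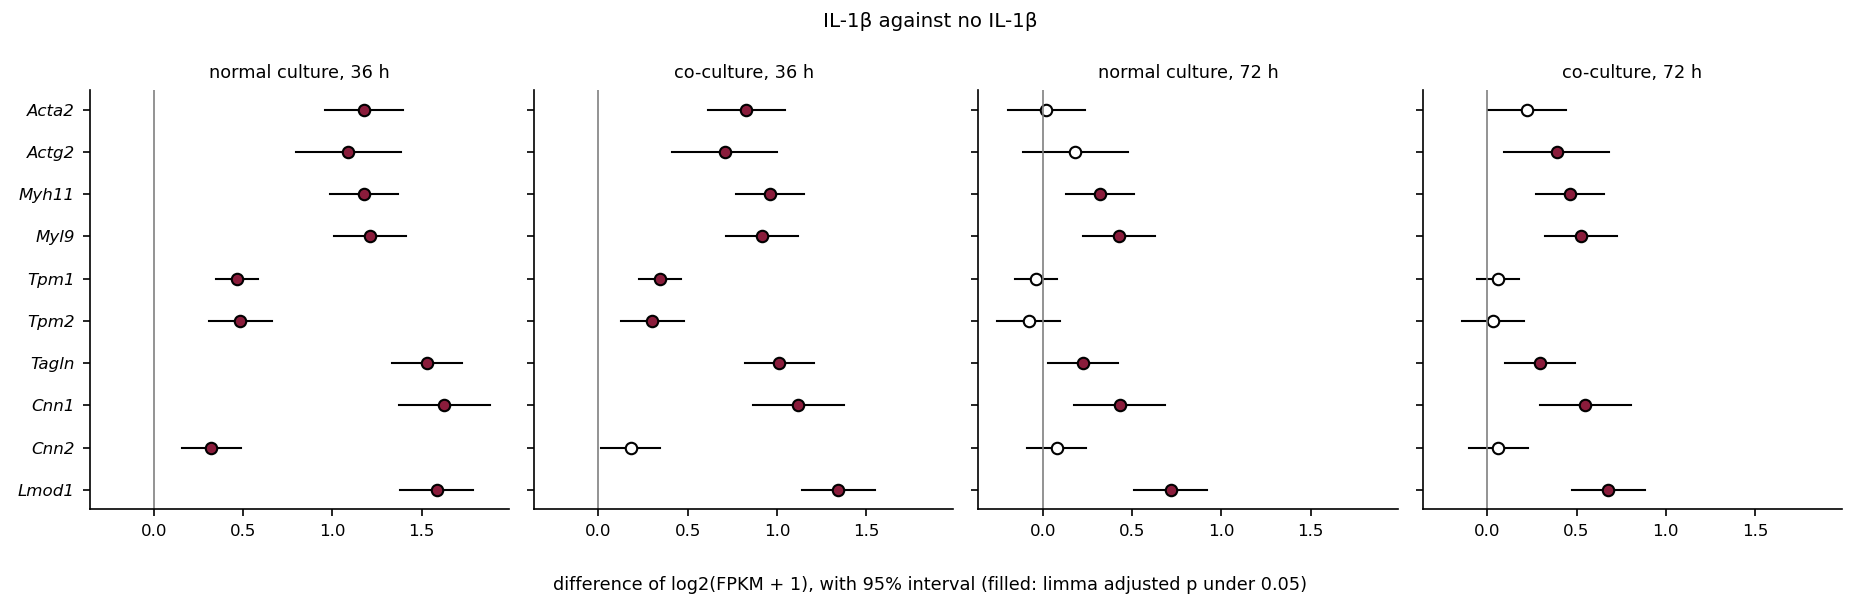
Difference of log2(FPKM + 1) between libraries with and without IL-1β (horizontal axis) for each gene, in normal culture and co-culture at 36 h (left pair) and 72 h (right pair); the line is the 95% interval and a filled point passed the test. All 10 points are filled in normal culture at 36 h and 5 at 72 h, where Acta2 sits at 0.02.

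By 72 h the difference between treated and untreated chondrocytes had become smaller in the members. In normal culture 5 members were higher with IL-1β and none lower, with a median of 0.20 against -0.08 for all tested genes, 23.1% of which were higher and 40.3% lower. Acta2 read 1078, 1266 and 1168 FPKM without IL-1β and 893, 1305 and 1425 with it, so that the groups overlapped and the difference of 0.02 had a 95% interval from -0.20 to 0.24. The 2 tropomyosins and Cnn2 did not pass either, at -0.04 for Tpm1, -0.08 for Tpm2 and 0.08 for Cnn2. Lmod1 rose 1.76-fold, from 6.59, 7.28 and 7.22 to 9.31, 13.2 and 14.7 FPKM (0.72, adjusted p = 1.54e-06). Myl9 rose by 0.43, Cnn1 by 0.43, Myh11 by 0.32 and Tagln by 0.22 (adjusted p = 0.0423), of which Myl9 alone had groups that did not overlap, where 22.6% of tested genes were higher without overlap. With the 2 compared groups fitted alone, Lmod1 and Myl9 passed, and Cnn1 (adjusted p = 0.0661), Myh11 (0.0706) and Tagln (0.222) did not.

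These counts also changed with the library that stood apart. Without replicate 1 of the treated group, 8 members passed with a median of 0.43, and Acta2 reached 0.22 (adjusted p = 0.00366), Actg2 0.47 and Cnn2 0.20. The call on Tagln was lost when any of 4 single libraries was left out (the treated replicate 2 or 3 or the untreated replicate 1 or 3), with values from 0.11 to 0.23 and adjusted p from 0.0717 to 0.305. Scaling mattered as well: expressed as TPM, the median of all genes in this comparison moved from -0.08 to -0.20, and 4 members were higher while Tpm1 and Tpm2 passed as lower.

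In co-culture at 72 h, 6 members were higher with IL-1β, with a median of 0.34 against -0.06 for all tested genes, 18.5% of which were higher and 30.6% lower. Lmod1 (0.68), Cnn1 (0.55), Myl9 (0.53), Myh11 (0.46), Actg2 (0.39) and Tagln (0.29) passed, and none of these had overlapping groups, where 21.1% of tested genes were higher without overlap. Acta2 read 1209.8, 1220 and 1159 FPKM untreated and 1308, 1449 and 1430 treated, without overlap, and missed the threshold (0.22, adjusted p = 0.0846). The call on Actg2 (adjusted p = 0.0275) was lost when any of 5 of the 6 libraries was left out, with adjusted p from 0.0503 to 0.0861.

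The change of the IL-1β difference between 36 h and 72 h was itself tested. In normal culture the effect at 72 h was below that at 36 h in 9 members, all but Cnn2 (-0.24, adjusted p = 0.0806), where 23.7% of tested genes had a higher and 21.6% a lower effect at the later time. Tagln changed most (-1.31, SE 0.13), followed by Cnn1 (-1.20) and Acta2 (-1.16), and the median was -0.86. Without replicate 1 of the treated group at 72 h, 9 members still passed, with a median of -0.65. In co-culture 7 members had the lower effect at 72 h, all but Actg2, Tpm2 and Cnn2, with a median of -0.45, where 14.1% of tested genes were higher and 14.8% lower. There the call on Myl9 (-0.39, adjusted p = 0.0364) was lost on leaving out any of 8 of the 12 libraries, with adjusted p from 0.0572 to 0.0954.

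Untreated chondrocytes, meanwhile, gained expression of every member between 36 h and 72 h. In normal culture 10 of 10 rose with a median of 0.80, against 0.03 for all tested genes, 33.1% of which were higher and 25.3% lower. Actg2 rose most, from 38.9, 34.8 and 37.0 FPKM to 112, 133 and 130.3, a 3.40-fold change (1.73, SE 0.14, adjusted p = 6.76e-10). Cnn1 rose 3.29-fold to 67.3, 70.5 and 67.6 FPKM, Tagln 2.62-fold to 488, 565 and 532, and Acta2 2.04-fold to the values given above. Each of these groups lay apart from its 36 h counterpart, and the share of all tested genes that did so was not computed. Tpm2 rose by 0.86, Myh11 by 0.73, Lmod1 by 0.57, Tpm1 by 0.45 and Myl9 by 0.33. Cnn2 changed least, by 0.22 (adjusted p = 0.0207), a call that was lost without any of 4 single libraries (adjusted p from 0.0528 to 0.0618). The members' order by time was not their order by IL-1β: Actg2 and Tpm2 had larger differences over time (1.73 and 0.86) than with IL-1β at 36 h (1.09 and 0.48), and Myl9 and Lmod1 smaller ones (0.33 and 0.57 against 1.21 and 1.58). Both differences use the same untreated libraries at 36 h.

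In untreated co-culture the 10 members also rose over time, with a median of 0.69 against 0.05 for all tested genes, 36.6% of which were higher and 24.9% lower. Actg2 went from 45.6, 46.2 and 46.1 FPKM to 133, 128 and 130.3, and Cnn1 from 26.2, 27.2 and 27.6 to 68.6, 74.3 and 74.7. Cnn2 was again the smallest at 0.22 (adjusted p = 0.0215), lost without either of 2 single libraries and with median-of-ratios scaling (adjusted p from 0.0509 to 0.0679).

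With IL-1β present, time separated the members. In treated normal culture Actg2 (0.83), Cnn1 (0.48) and Tpm2 (0.30) rose between 36 h and 72 h, while Myl9 (-0.45, from 331 ± 15.4 to 246 ± 53.6 FPKM) and Lmod1 (-0.29) fell. Of all tested genes 37.1% were higher and 32% lower, and the members' median was -0.04 against 0.02. Without replicate 1 at 72 h, 4 members were higher, Tagln being the fourth (0.25), and Myl9 alone was lower, since Lmod1 then stood at -0.12 (adjusted p = 0.132). In treated co-culture the same 3 members, Actg2 (1.17), Cnn1 (0.82) and Tpm2 (0.23), rose and none fell, where 35.4% of all genes were higher and 28.9% lower. The call on Tpm2 there (adjusted p = 0.0237) was lost without any of 3 single libraries and with median-of-ratios scaling (adjusted p from 0.0534 to 0.135). Tagln missed the threshold narrowly (0.21, adjusted p = 0.0509), although its 72 h libraries (626, 704 and 712 FPKM) all lay above those at 36 h (595, 586 and 575).

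**Figure D3:**
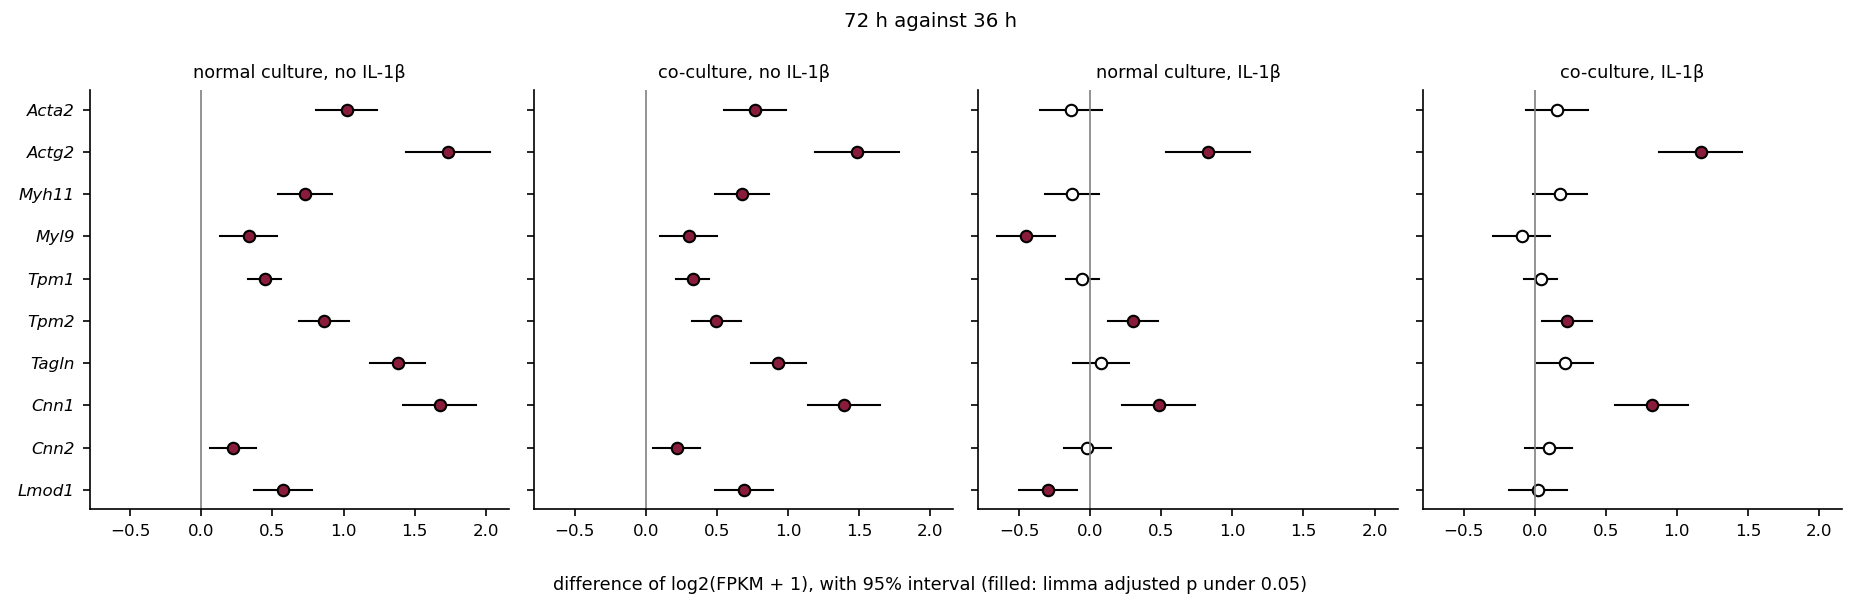
Difference of log2(FPKM + 1) between 72 h and 36 h (horizontal axis) for each gene in the 2 cultures, without IL-1β (left pair) and with it (right pair); the line is the 95% interval and a filled point passed the test. All 10 points are filled and positive in both untreated cultures, and with IL-1β Actg2, Cnn1 and Tpm2 are filled and positive in both.

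At 36 h few members passed between co-culture with dermal fibroblasts and normal culture, and how many did changed with the fit. In untreated co-culture at 36 h, Tagln and Cnn1 were higher than in normal culture, 2 of 10 members, where 6.28% of tested genes were higher and 9.2% lower. Tagln read 293.6, 289 and 286 FPKM in co-culture against 199.7, 199.5 and 207 alone, 1.43-fold higher with a wide gap between the groups (0.52, SE 0.09, adjusted p = 0.000500). Cnn1 read 26.2, 27.2 and 27.6 against 21.7, 18.9 and 21.8 FPKM (0.36, adjusted p = 0.0476), and its call was lost on leaving out any of the 6 libraries (adjusted p from 0.0740 to 0.177). Acta2 (703 ± 17.1 against 575 ± 5.81 FPKM, 0.29, adjusted p = 0.0644), Actg2, Tpm2 and Cnn2 had groups that did not overlap and did not pass, where 15.8% of tested genes were higher without overlap. Myh11, Lmod1 and Tpm1 differed by 0.01, -0.05 and -0.02. The median was 0.16 against -0.03 for all tested genes. Array weights brought 6 members past the threshold, the compared groups fitted alone 6, and those with the replicate number as a block 5, all higher in co-culture.

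Under IL-1β at 36 h no member passed, where 6.38% of tested genes were higher in co-culture and 4.17% lower. At an unadjusted p under 0.05, which 10.7% of tested genes met as lower, there were 3, Lmod1 (-0.29, 95% interval -0.50 to -0.09, adjusted p = 0.0585), Myh11 (-0.21) and Tpm1 (-0.14), each with a lower mean in co-culture, and Tagln differed by less than 0.01 (95% interval -0.19 to 0.20). Whether the culture changed the response to IL-1β at 36 h was tested as an interaction. The response of Tagln was smaller in co-culture (-0.52, SE 0.13, adjusted p = 0.0178), and it was the only member past the threshold, where 4.73% of tested genes had a larger and 2.23% a smaller response. The estimates of all 10 members were negative, from -0.12 for Tpm1 to -0.52, with Cnn1 at -0.51 (adjusted p = 0.0852) and a median of -0.27 against 0.03 for all tested genes. The call on Tagln was lost without replicate 2 of treated normal culture (-0.46, adjusted p = 0.0554). With the 4 compared groups fitted alone, 5 members passed as smaller.

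At 72 h no member differed between cultures by the test. Without IL-1β, 1.72% of tested genes were higher and 1.68% lower in co-culture, and the members' values ran from -0.22 for Tpm2 (205 ± 11.4 against 239 ± 14.7 FPKM) to 0.16 for Cnn2 (269 ± 6.24 against 240.2 ± 6.52), with 2 members, Tpm1 and Tpm2, lower at an unadjusted p under 0.05, as were 10% of tested genes. With IL-1β, 7.22% were higher and 5.26% lower, and the members ran from -0.11 for Tpm2 to 0.27 for Actg2, with Acta2 alone (0.24) higher at an unadjusted p under 0.05, as were 16.2% of tested genes. Leaving out replicate 3 of treated normal culture brought 6 members past the threshold as higher in co-culture, among them Acta2 (0.37, adjusted p = 0.0117), and leaving out replicate 1 left 0 with a median of -0.03. The interaction at 72 h passed for 0 members, ran from -0.04 to 0.21 and was called for 1.68% of tested genes as higher and 1.43% as lower, with 0 members at an unadjusted p under 0.05, which 20.6% of tested genes met in either direction. Without replicate 1 of treated normal culture it again passed for 0 members, with a median of -0.08.

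**Figure D4:**
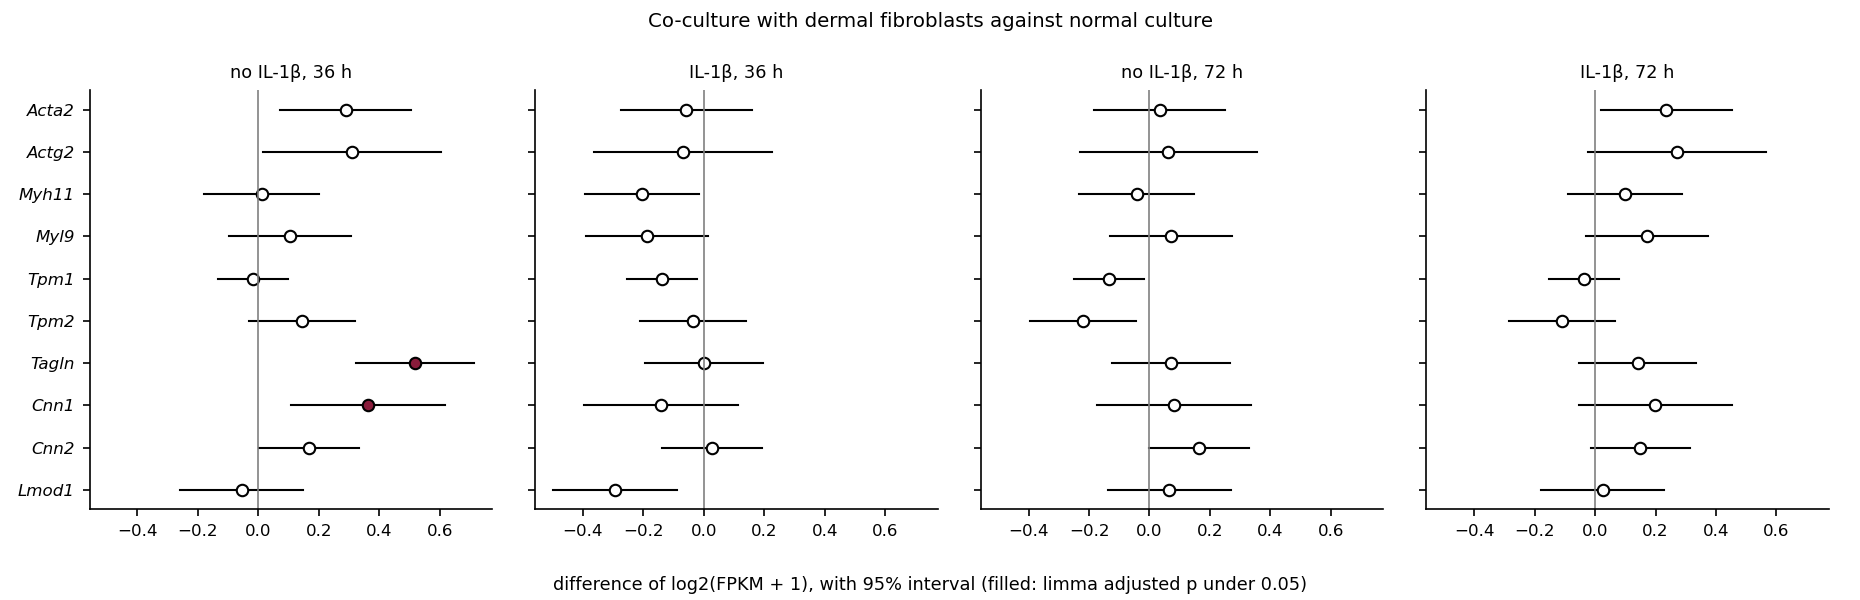
Difference of log2(FPKM + 1) between co-culture and normal culture (horizontal axis) for each gene, without and with IL-1β at 36 h (left pair) and 72 h (right pair); the line is the 95% interval, not adjusted over genes, and a filled point passed the test. Filled points are Tagln at 0.52 and Cnn1 at 0.36, without IL-1β at 36 h.

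The list of known regulators of the SRF program mixes genes that promote it, such as Mrtfa, with genes that oppose it, such as Klf4. Its counts and median therefore cannot show whether the regulators followed the members. With IL-1β in normal culture at 36 h, 4 of the 11 tested regulators rose, 3 fell and 4 did not pass, with a median of 0.01. Among all tested genes 25.9% were higher and 41.5% lower there. Srf itself stood at 12.4 ± 0.30 FPKM without and 12.4 ± 0.45 with IL-1β (-0.00, adjusted p = 0.953), and at 72 h it was 0.11 higher with IL-1β (0.13 without replicate 1). Mrtfa, which encodes MRTF-A, rose by 0.27 at 36 h and 0.45 at 72 h (0.42 without replicate 1), and by 0.35 over time without treatment. Tmsb4x, which encodes the actin-sequestering thymosin β4, was the most abundant regulator and rose by 0.75 with IL-1β at 36 h, from 485 to 815 FPKM. With IL-1β in normal culture at 72 h, without replicate 1, the largest differences were those of Klf5 (-0.89), Gata6 (0.78) and Scai (-0.52). Klf4, a repressor of smooth muscle genes, fell by 0.18 with IL-1β and rose by 0.57 over time. These are mRNA levels, and a link between any regulator and the members was not tested.

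TGF-β family genes in normal culture were mostly higher with IL-1β at 36 h and mostly lower at 72 h. In normal culture 7 of 11 rose and 2 fell with IL-1β at 36 h, while at 72 h 4 rose and 7 fell, with and without replicate 1 of the treated group. Among all tested genes 25.9% were higher and 41.5% lower at 36 h, and 23.1% and 40.3% at 72 h. Inhba, which encodes the activin A subunit, rose most, from 16.03 to 123.3 FPKM at 36 h (2.87). Thbs1, whose product thrombospondin 1 activates latent TGF-β, rose from 1269 to 2146 FPKM at 36 h (0.76) and was lower with IL-1β at 72 h (-0.32). Tgfbr2, the receptor that binds TGF-β, fell by 1.12 at 36 h. Tgfb2 and Tgfb3 were lower with IL-1β at 72 h, by -1.14 and -1.13. In untreated co-culture at 36 h, Inhba (0.67) and Thbs1 (0.35) were higher and Tgfb2 and Tgfbr3 lower, with 7 of 11 not passing. There 6.28% of all tested genes were higher and 9.2% lower.

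Of the other contractile and stress-fibre genes, 23 of 38 tested rose with IL-1β at 36 h in normal culture, 6 fell and 9 did not pass, with a median of 0.28. Among all tested genes 25.9% were higher and 41.5% lower there. Synpo2, a smooth muscle actin binder (1.18), Ppp1r12b, a subunit of myosin phosphatase (1.01), and Cald1, the filament protein caldesmon (0.87), rose. The cytoplasmic actins moved less, Actb by 0.41 and Actg1 by 0.33, and Vim, the intermediate filament vimentin, fell by 0.95. At 72 h in normal culture 18 were higher and 9 lower with IL-1β (17 and 9 without replicate 1), against 23.1% and 40.3% of all tested genes. The largest differences of the list there, without replicate 1, were those of Actc1 (1.58), Des (1.05) and Acta1 (0.93). Des and Acta1 also belong to the list of skeletal muscle markers, so the counts of these lists are not separate. Mylk, the kinase that phosphorylates Myl9, was lower (-0.62, and -0.43 without replicate 1). Over time without treatment 22 rose and 8 fell in normal culture, against 33.1% and 25.3% of all tested genes. Fhl1 (0.99), Cald1 (0.68) and Actn4 (0.64) rose, and the striated muscle genes Actc1 (-2.35), Des (-2.00) and Acta1 (-1.83) fell. In untreated co-culture at 36 h 8 were higher and 2 lower, against 6.28% and 9.2% of all tested genes. Nexn (0.31) and Fhl1 (0.24) were the largest of the higher ones.

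Myofibroblast matrix genes did not move as one with the contractile members. In normal culture at 36 h, IL-1β left 10 of 18 higher and 6 lower, where 25.9% of all tested genes were higher and 41.5% lower. The collagens Col1a1 (-0.62), Col1a2 (-0.73) and Col5a1 (-0.75) fell, while Tnc, tenascin C (1.64), Loxl2, a lysyl oxidase (1.08), and Lox, another collagen cross-linking enzyme (1.02), rose. Over time without treatment 6 rose and 10 fell in normal culture, against 33.1% and 25.3% of all tested genes. Col3a1 fell from 2162 to 765 FPKM. In untreated co-culture at 36 h 6 were higher and 1 lower, against 6.28% and 9.2% of all tested genes. The matricellular genes Ccn2 (0.88) and Ccn1 (0.88) were among the higher ones. The response of 6 of these genes to IL-1β at 36 h was smaller in co-culture than in normal culture, with Ccn2 at -0.78. A smaller response was called for 2.23% of all tested genes.

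Markers of other cell types also changed in several of these comparisons. The shares of all tested genes with IL-1β in normal culture at 36 h were 25.9% higher and 41.5% lower. Over time in untreated normal culture they were 33.1% higher and 25.3% lower. With IL-1β at 72 h, 23.1% were higher in normal culture and 18.5% in co-culture. In untreated co-culture at 36 h, 6.28% were higher and 9.2% lower than in normal culture. In normal culture, IL-1β at 36 h went with a fall in 11 of 12 tested chondrocyte markers (summed level of the list 791 to 822 FPKM without and 304 to 322 with IL-1β) while the contractile members rose. Dermal fibroblast markers were split, 6 higher and 4 lower of 12, and their summed level rose from 1766 to 1785 FPKM to 3575 to 3633, with Dcn going from 435 to 2088 FPKM. Of the vascular smooth muscle and pericyte markers 5 of 7 rose and 2 fell, with summed levels of 412 to 449 and 460 to 474 FPKM. Of the skeletal muscle markers 4 of 13 rose and 2 fell (278 to 314 and 307 to 332 FPKM), and of the macrophage markers 6 of 9 rose and 1 fell (52.8 to 61.2 and 76.0 to 87.8 FPKM). In untreated normal culture between 36 h and 72 h, when every contractile member rose, all 13 skeletal muscle markers fell (to 46.4 to 54.6 FPKM), the vascular smooth muscle and pericyte list summed to 149 to 157 FPKM at 72 h, and 7 of 9 macrophage markers rose (to 98.9 to 105 FPKM). At 72 h, 13 of 13 skeletal muscle markers were higher with IL-1β in each culture, in normal culture also without replicate 1. Vtn was at 0 in every library of 5 groups, and Kcnj8 and Abcc9, channel genes of pericytes, reached 0.72 and 0.65 FPKM at most. In untreated co-culture at 36 h, where Tagln and Cnn1 were higher, 6 of 12 dermal fibroblast markers were lower and 1 higher than in normal culture (summed level 1447 to 1459 FPKM), and 2 of 7 vascular smooth muscle and pericyte markers were higher and 1 lower (568 to 600.1 FPKM). The part of these lists in the results on the contractile genes was not tested.

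**Figure D5:**
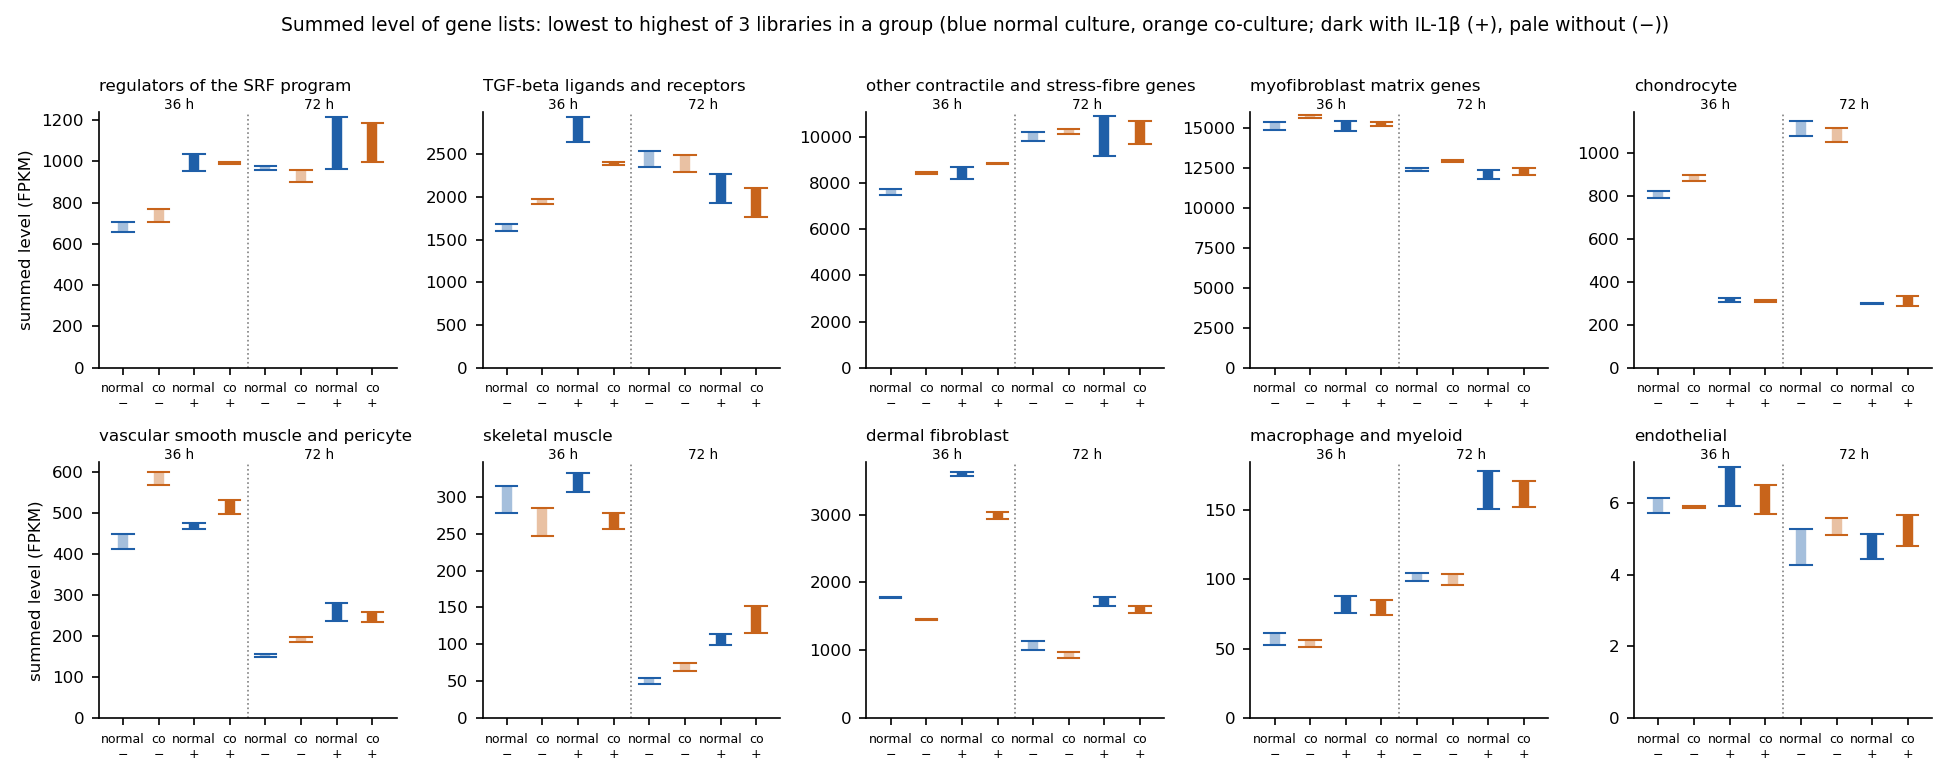
Summed level in FPKM (vertical axis, from 0) of the 4 lists of pathway genes and the 6 lists of cell type markers in the 8 groups; each bar runs from the lowest to the highest of 3 libraries. The skeletal muscle list falls from 278 to 314 FPKM at 36 h to 46.4 to 54.6 FPKM at 72 h in untreated normal culture, over which the 10 contractile genes rise.

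The members resembled each other over the 24 libraries to different degrees. On log2(FPKM + 1), Pearson's r was 0.986 between Acta2 and Tagln, the closest pair, 0.968 between Tagln and Cnn1 and 0.965 between Myl9 and Lmod1. The most distant pairs were Myl9 with Tpm2 (0.469) and with Actg2 (0.507). These values describe libraries that share groups, culture and scaling, and carry no test. Among 9376 other genes with at least 5 FPKM in a group, the 5 most like Acta2 were Sh3bp4 (0.961), Cux1 (0.952), Hspb8 (0.951), Tmsb4x (0.950) and Kmt5a (0.944). Those most like Tagln were Anxa3, Cux1, Sh3bp4, Mical2 and Hspb8 (0.964 to 0.969). For Cnn1 they were Anxa1 (0.974), Kmt5a (0.971), Anxa3, Hspb1 and Hmga1.

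By position in GENCODE vM21 (GRCm38), Tpm1 (chr9:67022590-67049406), Tagln (chr9:45929619-45936058) and Cnn1 (chr9:22099216-22109630) share a chromosome and lie far apart on it. Acta2 lies at chr19:34241090-34255590, Actg2 at chr6:83512905-83536265, Myh11 at chr16:14194535-14291372 and Myl9 at chr2:156775420-156781658. Tpm2 lies at chr4:43514711-43523765, Cnn2 at chr10:79988584-79996062 and Lmod1 at chr1:135324807-135368065. All 10 are annotated as protein-coding. Apart from Tagln, sharing of 50-base words with other genes was low: 0.326% for Acta2, with Actg1 and 2 pseudogenes of actin type, 0.391% for Myh11, with Myh9 and Myh10, and 0 for the other 7.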

How the data were processed

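Poly(A)-selected mRNA of 24 libraries was sequenced. The authors deposited FPKM per gene and library, 1 column each, rounded to 2 decimals per the file headers and values; the build was GRCm38 per the submitters' processing notes, and the aligner, counter and annotation are not given in the sources used here. Summed FPKM per library ran from 438242 to 506621. Depth is treated as unknown and reads were not recovered: in 119 low genes, 15.1% of 1191 values were whole multiples, to a tolerance of 0.05, of the gene's lowest value above 0, where an even spread gives 10%, a check that made no allowance for unequal depth. Genes with at least 1 FPKM in at least 3 libraries (12178 of 17094) were fitted with limma 3.58.1 (R 4.3.3, trend) on log2(FPKM + 1), with 8 group means, 16 residual degrees of freedom and no replicate block, in 16 comparisons. P-values were Benjamini-Hochberg adjusted over all tested genes, and every adjusted p comes from this limma fit or a named alternative to it. The fit was tested on simulated data. The members are named whatever their result. Other genes are named for a high level, a large difference past the threshold within their list or a known role, and the naming is not complete. The members and lists were chosen with earlier results of these data known. Alternatives were a pseudocount of 0.1, no filter or a filter of 5 FPKM, TPM and median-of-ratios scaling, array weights, a replicate block, the compared groups alone and leaving out each library. The compared groups with a block and the gene lists without the library that stood apart were added after seeing the data. Same-numbered libraries deviated together in co-culture against normal culture with IL-1β at 72 h alone (r of 0.364, 0.179 and 0.577 for the 3 numbers). Promoters and gene models came from RefSeq GRCm38.p6 and GENCODE vM21, read with Python 3.11.15, and figures were drawn with matplotlib 3.10.9. The values of 1 gene of the matrix list are not reported here.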

Additional observations from a re-analysis of the deposited data

Results flagged for a closer look

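Effects that differed between groups under the same contrast, each by a limma test of the difference itself, are listed here on the log2(FPKM + 1) scale. In normal culture 9 members responded less to IL-1β at 72 h than at 36 h, Tagln by -1.31 (adjusted p = 6.91e-08), Cnn1 by -1.20 and Acta2 by -1.16, then Actg2 by -0.91, Lmod1 by -0.87, Myh11 by -0.86, Myl9 by -0.78, Tpm2 by -0.56 and Tpm1 by -0.50. Without replicate 1 of the treated group at 72 h all 9 still passed, from -0.45 for Tpm1 to -1.14 for Tagln. In co-culture 7 members did, Tagln by -0.72 (adjusted p = 0.000274), Lmod1 by -0.67, Acta2 by -0.61, Cnn1 by -0.57, Myh11 by -0.50, Myl9 by -0.39 and Tpm1 by -0.29, of which Myl9 lost its call on leaving out any of 8 single libraries (adjusted p from 0.0572 to 0.0954) and with no filter (0.0584). The response of Tagln to IL-1β at 36 h was smaller in co-culture than in normal culture, by -0.52 (adjusted p = 0.0178), and was -0.46 (adjusted p = 0.0554) without replicate 2 of treated normal culture.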

How the results depend on the processing

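No direction that passed was reversed under any alternative run. Counts of members past the threshold are given here, and the cause of each move was not tested. The shares of all tested genes under each alternative are not given beside them, so a higher count is not a result about the members. For IL-1β in normal culture at 72 h, where 5 passed, array weights gave 9 (8 higher, 1 lower), the compared groups alone 2, and single libraries left out 4 to 8 (8 without treated replicate 1). For co-culture without IL-1β at 36 h (2 passed), no filter gave 1, array weights 6, the compared groups alone 6, those with a replicate block 5, and any of the 6 libraries left out 1. For co-culture under IL-1β at 36 h (0 passed), TPM gave 2, array weights 4, the compared groups alone 3, and a replicate block 1 over all libraries, 1 within each time and 3 in the compared groups, all lower. For co-culture without IL-1β at 72 h (0 passed), TPM gave 2, array weights 3, the compared groups alone 2 and those with a replicate block 3. Under IL-1β at 72 h (0 passed) single libraries left out gave 0 to 6 (6 without replicate 3 of treated normal culture). There same-numbered libraries deviated together, which does not show that they were paired, and the replicate block left 0. For the interaction at 36 h (1 passed), TPM gave 2, array weights 5, the compared groups alone 5, a replicate block within each time 2, the compared groups with a replicate block 6, all lower, and single libraries left out 0 to 1 (0 without replicate 2 of treated normal culture). For 72 h against 36 h in treated co-culture (3 passed), array weights gave 6 and the compared groups alone 5. In the other comparisons the replicate numbers were treated as names, since same-numbered libraries correlated at -0.262 to 0.251. The estimate of the array weights stopped short of limma's convergence tolerance. With a pseudocount of 0.1 all 160 gene results kept their side of the threshold.

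Scaling moved the share of higher genes among all called genes by over 10 percentage points in 7 comparisons. With TPM it went from 39.8% to 29.8% for the IL-1β response of co-cultures at 36 h, from 36.4% to 23.6% in normal culture at 72 h and from 37.6% to 23.9% in co-culture at 72 h, from 50.7% to 37.1% for co-culture without IL-1β at 72 h and from 54.1% to 65.6% for the interaction at 72 h. With median-of-ratios scaling the 72 h values were 48.2% for IL-1β in normal culture, 62.2% for co-culture without IL-1β and 29.6% for the interaction. It also moved co-culture under IL-1β at 72 h from 57.8% to 43.7% and co-culture without IL-1β at 36 h from 40.6% to 54%. Depth is unknown, which limits most the low levels of Myh11 and Lmod1.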
